A study of Mus musculus with 8 samples.

Results

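The endothelial identity genes examined here were 10 genes that mark the cells lining blood vessels, Pecam1, Cdh5, Kdr, Flt1, Tek, Tie1, Emcn, Plvap, Vwf and Eng, out of 18193 genes measured on 8 arrays. All 10 were measured. The names were given as a list. The probe set that stands for each gene was chosen by its measured level, as the brightest of its probe sets over the 8 arrays, so the levels themselves are a description. The list was drawn up with results of these arrays in view.

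Endothelial cells form the inner wall of vessels and, in the kidney, the fenestrated capillaries of the glomerulus and the peritubular network around the tubules. Vascular endothelial growth factor and the angiopoietins act on them through receptor tyrosine kinases, and junction proteins hold neighbouring cells together. Several of these genes are also read in blood cells: Pecam1 on platelets and leukocytes, Vwf in platelets, Eng on activated macrophages, and Flt1 on monocytes.

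The arrays were Affymetrix mouse expression arrays hybridised with RNA from the GFP-positive fraction of collagenase-digested kidney, isolated by FACS. The mice carried FSP1-eGFP on the C57BL/6 background, were 6 months of age and are labelled male. FSP1 is S100a4, whose promoter drives the reporter. It is often used to mark fibroblasts and is also active in some myeloid cells. The 5 ischemic kidneys were collected at day 3 of reperfusion, following a 45 minute clamp of the left renal vessels, from mice given buprenorphine for pain. Controls were 3 kidneys described in the labels as normal, sham and non-ischemic. At issue is what changes in the reporter-positive cells of a kidney in acute injury. The labels speak of separate kidneys and of 5 operated mice, and do not say how the normal kidneys map to animals, so the p-values measure the spread between these arrays.

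Levels below are log2(intensity + 16) after quantile normalization, and 5 against 3 arrays limits their precision. S100a4 lay between 11.30 and 12.22 on all 8 arrays. By brightness rank, which is not abundance, 10 of the 10 endothelial genes ranked in the upper part of all genes (median or higher), as did 19 of 20 measured macrophage markers and 6 of 14 fibroblast markers, the labelled cell type. Ischemic 1 stood apart, with a median correlation to the other arrays of 0.753 across genes against 0.850 to 0.913 for the rest. Xist, the RNA of the inactive X chromosome, was at 11.21 in ischemic 1, 9.39 in ischemic 2 and 11.01 in normal 1, and between 4.49 and 4.96 in the other 5 arrays, although the labels call every mouse male. Y-linked Eif2s3y was at 5.84 in ischemic 1 and in normal 1 and at 7.68 to 8.87 in the other 6 arrays. Ischemic 2 was among those 6, at 7.785. Its Kdm5d (7.877) and Uty (6.733), also Y-linked, lay within the range of the low-Xist arrays too. The 3 arrays of high Xist were thus not alike in Y-linked genes. Group differences of the 10 endothelial genes are therefore given with and without the 3 arrays of high Xist.

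The endothelial genes varied strongly from array to array, and that variation ran across both groups. The mean level of the 10 genes was 6.57 in ischemic 1, 6.75 in ischemic 2, 7.44 in ischemic 3, 8.10 in ischemic 4 and 9.37 in ischemic 5. It was 7.45 in normal 1, 8.87 in normal 2 and 8.90 in normal 3. The highest array and the lowest array were thus both ischemic, and the 3 normal arrays lay inside the ischemic range. Ischemic arrays averaged 7.65 ± 1.14 (SD, n = 5), and normal arrays averaged 8.40 ± 0.83 (SD, n = 3). In sorted bulk RNA, fewer endothelial cells and less endothelial RNA per cell cannot be told apart.

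**Figure D1:**
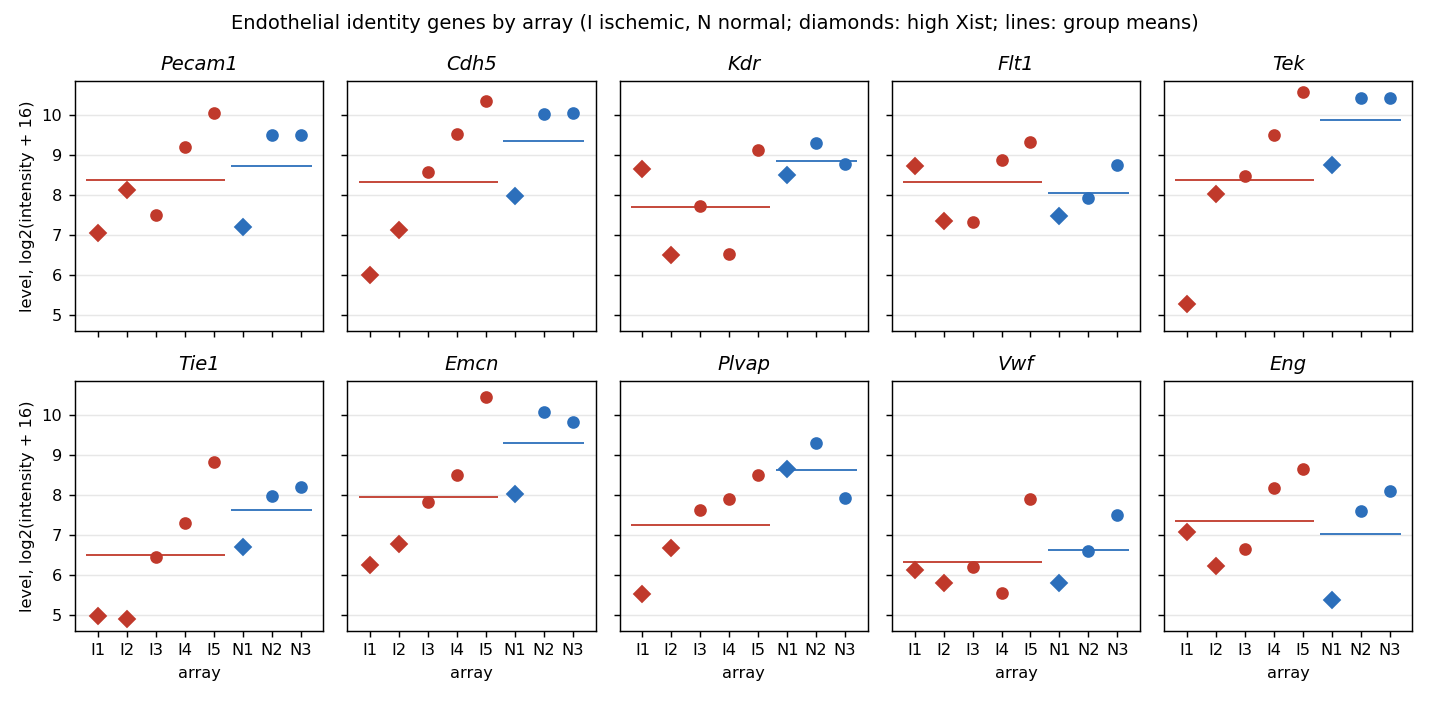
Level of each of the 10 genes, as log2(intensity + 16), on the 5 ischemic arrays (I1 to I5, red) and the 3 normal arrays (N1 to N3, blue), with lines at the group means and diamonds for the 3 arrays of high Xist. Groups overlap in every gene, and Tek runs from 5.29 on ischemic 1 to 10.56 on ischemic 5.

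None of the 10 genes passed limma with adjustment over all genes, where 0% of 18193 genes were called. None had an unadjusted p under 0.05, which 7.13% of all genes had, and in none did the groups stay apart, which they did in 5.33% of all genes. The difference of ischemic minus normal was negative in 8 of the 10 genes against 45.2% of all genes, and below −1 in 6 of the 10 against 5.89% of all genes. That count of 6 became 1 without ischemic 1, 2 without normal 2, 3 without ischemic 2, 2 among the 5 arrays of low Xist, 3 with a pseudocount of 64 and 0 with limma array weights. The median difference was −1.08 for the 10 genes and 0.041 for all genes. Leaving out ischemic 1 brought the median of the 10 to −0.59, and over the other arrays left out in turn it ran from −1.52 without ischemic 5 to −0.73 without ischemic 2. Among the 5 arrays of low Xist the median was −0.56, with 9 of 10 genes negative.

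The spread between arrays of one group was wide. The within-group SD had a median of 1.22 over the 10 genes, against 0.55 over all genes and 0.67 over the genes at or above the median level. It was 0.94 for the 10 genes among the 5 arrays of low Xist. Wide spread was not particular to these genes. Over all 8 arrays the median was 1.29 for Notch and arteriovenous genes and 1.09 for adhesion and junction genes. For T, B and NK cell markers it was 1.19 and for proximal tubule markers 1.12. Macrophage and monocyte markers, at 0.495, and fibroblast markers, at 0.63, varied less. The distance from the lowest to the highest array exceeded 3 log2 units in 6 of the 10 genes and in 12.8% of all genes. Ischemic 5 was the highest of the 8 arrays in 8 of the 10 genes, where it was the highest in 6.86% of all genes, and ischemic 1 was the lowest in 5 of the 10, where it was the lowest in 23.5% of all genes. These arrays were picked out after their values were seen.

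Tek, the angiopoietin receptor, had the widest range. It was at 5.29, 8.03, 8.47, 9.49 and 10.56 in ischemic 1 to 5 and at 8.75, 10.42 and 10.41 in normal 1 to 3. Ischemic 1 lay far below all other arrays, with a deposited intensity of 28.7 against 1591 in normal 2, and ischemic 5 was above every normal array. The 8 arrays spanned 38.5-fold on the log2(intensity + 16) scale. The groups differed by −1.49 ± 1.06 (SE; limma adjusted p = 0.916), with values from −2.05 to −0.73 when 1 array was left out. Tie1, the related orphan receptor that acts with Tek, was at 4.99, 4.89, 6.46, 7.31 and 8.81 in ischemic 1 to 5 and at 6.70, 7.96 and 8.20 in normal 1 to 3. Ischemic 1 and 2 were the low arrays and ischemic 5 the high one, and the groups overlapped. The deposited Tie1 intensities on ischemic 1 and 2 were 21.5 and 12.7, near the added 16. The Tie1 difference was −1.13 ± 0.89 (SE; limma adjusted p = 0.928) and ran from −1.71 to −0.73 with 1 array left out. It was −1.48 with a pseudocount of 1 and −0.69 with a pseudocount of 64. Among the low-Xist arrays Tek was at −0.91 and Tie1 at −0.55.

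Cdh5 encodes VE-cadherin, the adhesion molecule of endothelial junctions. It was at 6.00, 7.14, 8.58, 9.52 and 10.33 in ischemic 1 to 5 and at 7.98, 10.02 and 10.03 in normal 1 to 3. The low and high arrays were those of Tek, and the difference was −1.03 ± 0.99 (SE; limma adjusted p = 0.949), from −1.71 to −0.45 with 1 array left out. Pecam1, the adhesion molecule CD31, was at 7.06, 8.11, 7.49, 9.20 and 10.05 in ischemic and at 7.21, 9.49 and 9.48 in normal arrays. Normal 1 was close to ischemic 1 here, and 3 ischemic arrays lay between it and the other normal arrays. The Pecam1 difference was −0.34 ± 0.79 (SE; limma adjusted p = 0.970), and it turned to 0.038 without normal 2 and 0.033 without normal 3. With low-Xist arrays only, Cdh5 was at −0.55 and Pecam1 at −0.57.

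Emcn encodes endomucin, a sialomucin of capillary and venous endothelium. Its levels were 6.25, 6.79, 7.83, 8.49 and 10.43 in ischemic 1 to 5 and 8.02, 10.07 and 9.83 in normal 1 to 3. Only ischemic 4 and 5 reached the range of the normal arrays, and the difference was −1.35 ± 0.93 (SE; limma adjusted p = 0.902). With low-Xist arrays only, Emcn was at −1.03. Plvap forms the diaphragms of endothelial fenestrae and caveolae. It was at 5.54, 6.66, 7.63, 7.89 and 8.49 in ischemic and at 8.65, 9.30 and 7.92 in normal arrays. Only ischemic 5 was above the lowest normal array, and Plvap had the lowest unadjusted p of the 10 genes (0.0654; difference −1.38 ± 0.65 SE; limma adjusted p = 0.742). Its difference was −0.61 among the low-Xist arrays and −2.54 among the high-Xist arrays, where normal 1 is the only normal array.

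**Figure D2:**
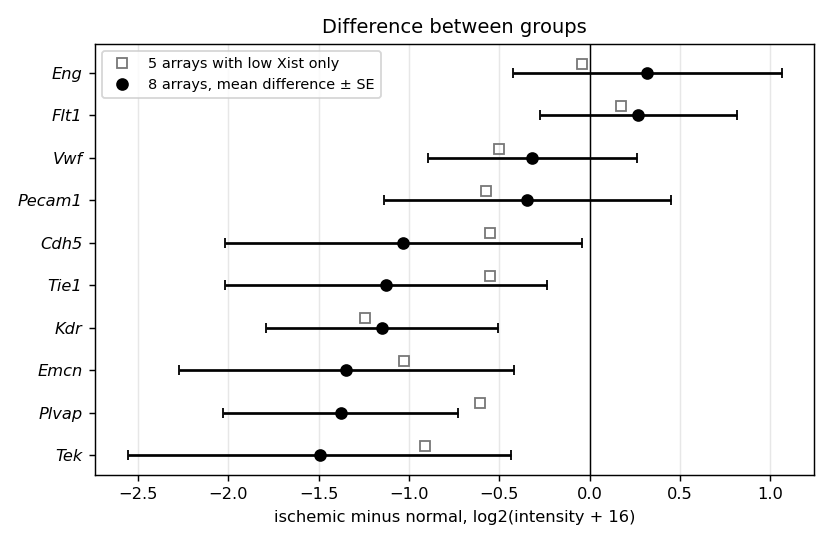
Ischemic minus normal on the log2(intensity + 16) scale for each gene, as the limma estimate ± SE over 8 arrays (circles) and as the estimate from the 5 arrays of low Xist alone (open squares). The estimates run from −1.49 for Tek to 0.32 for Eng, and none passed the test.

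Kdr and Flt1 are the receptors of vascular endothelial growth factor. Kdr departed from the common order of arrays, and Flt1 did so by its brightest probe set only. Kdr, the main signalling receptor, was at 8.64, 6.50, 7.73, 6.53 and 9.11 in ischemic 1 to 5 and at 8.49, 9.30 and 8.77 in normal 1 to 3. Ischemic 1, the lowest array for 5 of the 10 genes, was the second highest ischemic array for Kdr, and ischemic 4 was near the bottom. The Kdr difference was −1.15 ± 0.64 (SE; limma adjusted p = 0.836), negative with each array left out (−1.50 to −0.85) and −1.24 among the low-Xist arrays. Flt1, a high-affinity receptor that also has a soluble form, was at 8.72, 7.34, 7.33, 8.87 and 9.32 in ischemic and at 7.47, 7.93 and 8.74 in normal arrays. Here ischemic 1 was above normal 1 and 2, unlike in Tek, Tie1, Cdh5 and Emcn. The difference of 0.27 ± 0.54 (SE; limma adjusted p = 0.969), or 0.17 with low-Xist arrays only, depended on the probe set.

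Flt1 had 4 probe sets, and the brightest (used above) was unlike the other 3. On ischemic 1 it was at 8.72, where the others were at 4.74, 5.22 and 4.89. On ischemic 5 it was at 9.32, where the others were at 8.21, 8.07 and 8.54. The other 3 differed between the groups by −1.41, −1.16 and −1.10. Their root mean square distance from the mean profile of the other 9 genes, after centring each on its own mean, was 0.427 to 0.494 log2 units, against 0.949 for the brightest. With the mean of all probe sets Flt1 was at −0.85. Which transcript forms each probe set reads was not analysed here.

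Eng, a co-receptor for ligands of the transforming growth factor beta family, also had probe sets that disagreed. The one used was at 7.08, 6.22, 6.64, 8.16 and 8.64 in ischemic 1 to 5 and at 5.38, 7.61 and 8.10 in normal 1 to 3. The lowest array was normal 1, and the difference was 0.32 ± 0.75 (SE; limma adjusted p = 0.970). Leaving out normal 1 turned it to −0.51 and leaving out ischemic 5 to −0.004, and among the low-Xist arrays it was −0.041. The other probe set was lowest on ischemic 1 (5.19) and differed by −0.19. Cdh5 had a further probe set, which differed by −0.85 and had the same lowest and highest arrays as the one used.

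Vwf, the von Willebrand factor of platelet adhesion, was at 6.14, 5.81, 6.19, 5.54 and 7.91 in ischemic 1 to 5 and at 5.81, 6.60 and 7.50 in normal 1 to 3. Ischemic 5 and normal 3 were high, and the other arrays lay within 5.54 to 6.60. The difference was −0.32 ± 0.58 (SE; limma adjusted p = 0.966) and turned to 0.11 without normal 3. With low-Xist arrays only it was −0.5. Vwf is also stored in platelets. The platelet and megakaryocyte markers, 12 of 14 measured and 2 of those 12 of median brightness or higher, had list means of 5.57 to 5.87 in ischemic and 5.38 to 6.44 in normal arrays. Their means were 5.65 on ischemic 5, 5.60 on normal 3 and 6.44 on normal 2, and the part of platelets in the Vwf values was not tested.

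**Figure D3:**
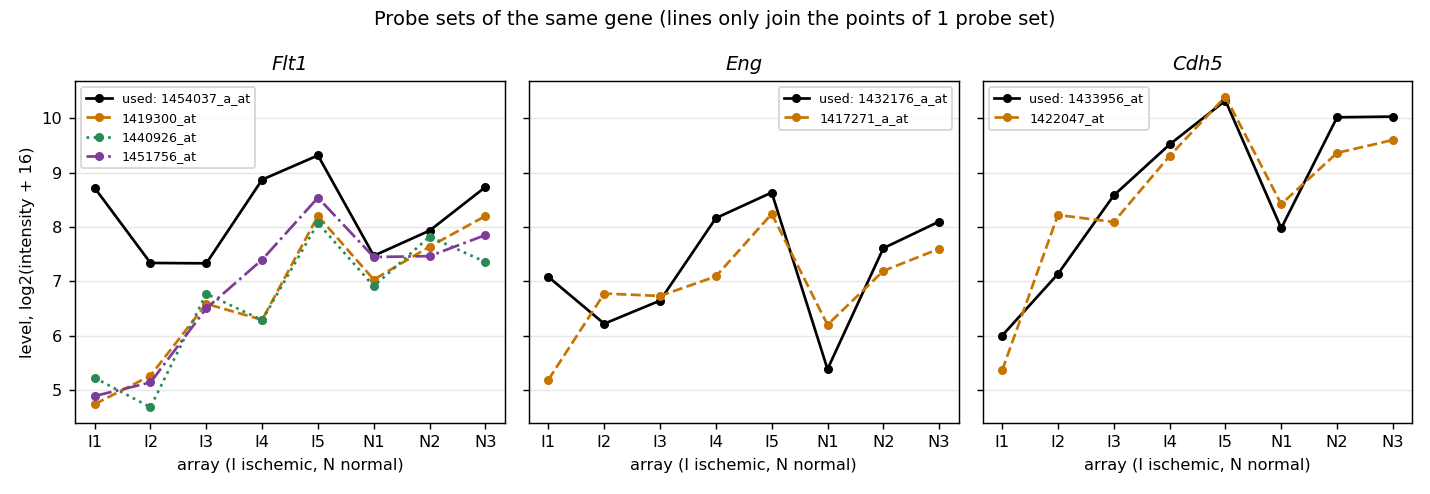
Level of every probe set of Flt1, Eng and Cdh5, as log2(intensity + 16), on the 8 arrays (I ischemic, N normal). The black line is the probe set used, and lines only join the points of 1 probe set. For Flt1 the used probe set is at 8.72 on ischemic 1 and the other 3 are at 4.74 to 5.22.

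The genes shared a profile over the arrays to differing degrees. The root mean square distance of a gene from the mean profile of the other 9, each gene centred on its own mean, was smallest for Tie1 (0.477), Pecam1 (0.535) and Emcn (0.542). It was largest for Kdr (1.11), Tek (0.973) and Flt1 (0.949). The Flt1 value belongs to the brightest probe set, and the other Flt1 probe sets lay at 0.427, 0.47 and 0.494. The other Eng probe set was at 0.505 against 0.812 for the one used, and the other Cdh5 probe set at 0.817 against 0.667. For Tek the distance came with the low value on ischemic 1, and for Kdr with ischemic 1 and 4.

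**Figure D4:**
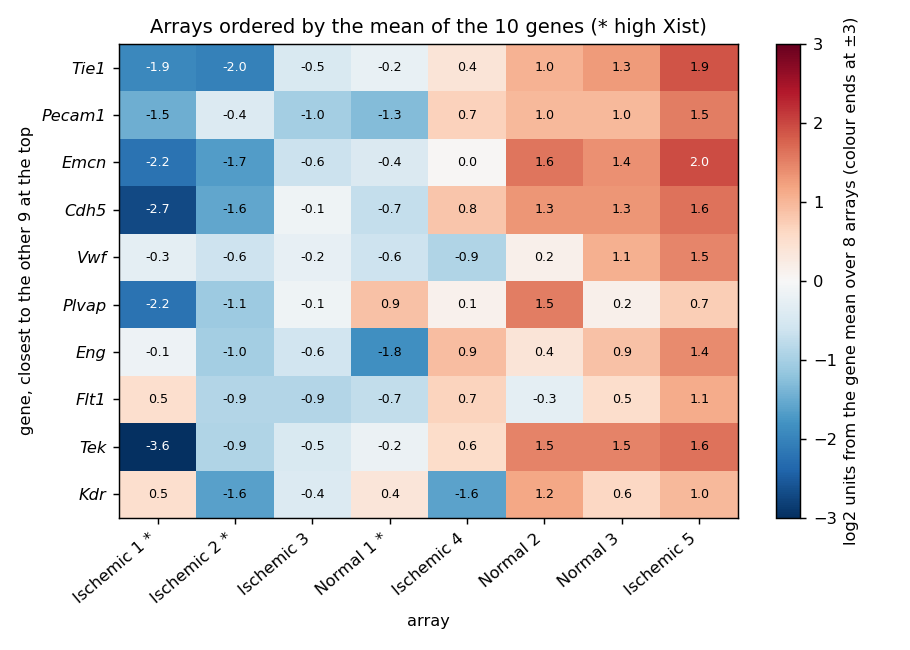
Each gene's level minus its mean over the 8 arrays, in log2 units, with arrays ordered from the lowest to the highest mean of the 10 genes and genes ordered by their distance from the other 9. Ischemic 5, on the right, is above the gene mean in 10 of 10 genes, and colours end at 3 log2 units although Tek reaches −3.64 on ischemic 1.

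Start regions are printed for 3 receptors or surface genes that follow the shared profile to different degrees and for Kdr, which departed from it most. Of the 10 genes, 6 had an entry among RefSeq promoters (build GRCm38.p6). Each line gives the 250 bases before the gene's start, 5′ to 3′ along the gene, and capitals mark GGAA or its reverse complement TTCC, the core letters of sites bound by ETS factors such as Erg and Fli1.
Tie1, chr4:118489850-118490099, minus strand: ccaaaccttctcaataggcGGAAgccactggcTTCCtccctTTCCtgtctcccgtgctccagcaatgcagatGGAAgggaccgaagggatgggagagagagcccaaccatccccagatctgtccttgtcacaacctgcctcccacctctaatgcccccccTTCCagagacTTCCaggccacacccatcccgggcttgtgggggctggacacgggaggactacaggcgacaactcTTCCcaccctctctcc
Emcn, chr3:137340828-137341077, plus strand: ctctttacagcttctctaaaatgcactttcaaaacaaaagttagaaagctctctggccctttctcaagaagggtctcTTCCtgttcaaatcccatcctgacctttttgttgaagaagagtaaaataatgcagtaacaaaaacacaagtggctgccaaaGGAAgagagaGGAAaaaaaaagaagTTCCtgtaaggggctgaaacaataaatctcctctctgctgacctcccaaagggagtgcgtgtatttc
Tek, chr4:94739039-94739288, plus strand: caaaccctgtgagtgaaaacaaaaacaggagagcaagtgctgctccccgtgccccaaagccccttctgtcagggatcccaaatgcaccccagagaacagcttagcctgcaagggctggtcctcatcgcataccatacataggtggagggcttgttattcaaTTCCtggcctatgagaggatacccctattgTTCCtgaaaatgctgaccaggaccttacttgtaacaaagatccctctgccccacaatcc
Kdr, chr5:75978456-75978705, minus strand: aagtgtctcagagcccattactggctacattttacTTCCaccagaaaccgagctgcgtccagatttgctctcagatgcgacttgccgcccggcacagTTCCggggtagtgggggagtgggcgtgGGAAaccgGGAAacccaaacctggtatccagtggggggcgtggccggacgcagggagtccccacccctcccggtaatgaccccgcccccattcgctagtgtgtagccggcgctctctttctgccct

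GGAA was matched 7 times in the window of Tie1, 4 times in those of Emcn and Kdr, and 2 times in that of Tek. All 6 windows held GGAA on either strand, as did 93.4% of 27025 promoters of the same length, where the median was 3 matches. CAGGAA, which contains GGAA, was matched in Tie1, Emcn and Tek, so in 3 of the 6 windows against 25.4% of all promoters. CCGGAA, which also contains GGAA, was matched in Kdr alone, against 12.2% of all promoters. AGATAA, a letter string read by GATA factors, was matched in 0 of 6 against 10.3% of all promoters. TATAAA was matched in Flt1 alone, against 13.0% of all promoters. These are matches of letters and do not show binding.

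Genes outside the list of 10 were ranked by their closeness to its mean profile, and the nearest are given. Their small distances follow from that choice. Among 9087 other genes at or above the median level, the 10 nearest to the mean profile of the endothelial genes lay at 0.162 to 0.258 log2 units (root mean square over 8 arrays), against a median of 1.09. The nearest was Tjp1, the junction scaffold ZO-1, at 7.30, 7.30, 7.76, 8.66 and 10.05 in ischemic 1 to 5 and at 7.74, 9.59 and 9.58 in normal 1 to 3. Its 3 highest arrays, ischemic 5 and normal 2 and 3, were those of Cdh5. Epas1, the hypoxia-inducible factor HIF-2alpha, was at 0.227 and Icam2, an adhesion molecule of endothelium, at 0.233. The others were Mapk12, Crim1, Ehd2, a caveolar ATPase, Fat4, Slc9a3r2, a scaffold for transporters, Sparc, a matricellular protein, and Timp3, an inhibitor of metalloproteinases. Of these 10 genes, 3 were in the vascular lists used here, and the share of the 9087 genes in those lists was not counted.

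Other genes of the vascular pathways were read from the same fit, and 0 passed over all genes. The lists were drawn up with earlier results known. Among 18 adhesion and junction genes, 14 had negative differences, against 45.2% of all genes, with a median of −0.46. By unadjusted p under 0.05, where 5.02% of all genes were lower and 2.11% higher, 1 was lower and 0 higher. That gene was Ocln, the tight junction protein occludin, at −1.18 ± 0.33 (SE; limma adjusted p = 0.305). Ocln was low on ischemic 5 (5.155) and high on normal 1 (6.483), unlike the order of arrays in the 10 endothelial genes. Ischemic 5 was the highest array in 10 of the 18 (6.86% of all genes) and ischemic 1 the lowest in 10 (23.5% of all genes).

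Ligands and receptors of the growth factor, angiopoietin and bone morphogenetic protein pathways were divided. Among 17 such genes 9 had negative differences, against 45.2% of all genes, with a median of −0.074. By the same unadjusted threshold 1 was higher and 0 lower. This was Vegfd, a ligand mainly of lymphatic vessels, at 1.10 ± 0.47 (SE; limma adjusted p = 0.685).

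Among 21 endothelial transcription factors 12 were negative, against 45.2% of all genes, and 9 positive, with a median of −0.049. By the unadjusted threshold 1 was lower and 2 were higher. Nr2f2, a factor of venous identity, differed by −1.19 ± 0.30 (SE; limma adjusted p = 0.236). Its highest array was normal 1 (10.25), with ischemic 5 at 8.97, so it did not share the endothelial order either. Fli1, an ETS factor, was at 0.98 ± 0.34 (limma adjusted p = 0.515) and Lyl1 at 1.03 ± 0.41 (limma adjusted p = 0.632).

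Among 13 Notch and arteriovenous genes 10 were negative, against 45.2% of all genes, with a median of −0.33. Ephb4, a receptor of venous endothelium, differed by −1.62 ± 0.65 (SE; limma adjusted p = 0.633) and was the only one of them under the unadjusted threshold. Ischemic 5 was the highest array in 9 of these 13 genes, against 6.86% of all genes. Of 44 surface, vasoactive and anticoagulant genes 40 were measured. Negative differences were found in 37, against 45.2% of all genes, with a median of −0.46. By unadjusted p 3 were lower and 0 higher, against 5.02% lower and 2.11% higher among all genes. Prox1, a lymphatic transcription factor, was at −1.36 ± 0.36 (SE; limma adjusted p = 0.278), Igfbp5, an insulin-like growth factor binding protein, at −2.76 ± 1.00 (limma adjusted p = 0.542) and Ehd3, a gene of glomerular endothelium, at −1.59 ± 0.64 (limma adjusted p = 0.641). Ischemic 5 was the highest array in 22 of the 40, against 6.86% of all genes.

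Markers of other cells were measured beside the endothelial genes. T, B and NK cell markers, 11 of 15 measured, had list means of 7.57 in ischemic 1, 6.38 in ischemic 2 and 6.53 in normal 1, the 3 arrays of high Xist, and of 4.83 to 5.38 in the other 5. Ischemic 1 had the highest lymphocyte mean and the lowest endothelial mean, and ischemic 5 the reverse. Their summed intensity ran from 163 to 3368 in ischemic and from 190 to 1404 in normal arrays. Macrophage and monocyte markers, 20 of 20 measured, had summed intensities of 22855 to 36234 in ischemic and 14663 to 20406 in normal arrays, and ischemic 5 was the highest array in 0 of the 20. All 20 differences were positive, with a median of 0.68.

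Proximal tubule markers, 17 of 18 measured, had list means of 6.05 to 7.88 in ischemic and 9.11 to 10.65 in normal arrays. Normal 1 was the highest array for these and the lowest normal array for the endothelial genes. Podocyte markers, 11 of 14 measured and including Podxl, which endothelium also expresses, ran from 6.70 to 7.91 in ischemic and from 7.16 to 7.78 in normal arrays. They were highest on ischemic 5 and lowest on ischemic 2. Pericyte, mesangial and smooth muscle markers, 15 of 16 measured, were at 5.77 to 6.74 in ischemic and 5.89 to 6.43 in normal arrays and were also highest on ischemic 5. Fibroblast markers, 14 of 14 measured, ran from 6.33 to 7.38 in ischemic and from 5.88 to 7.06 in normal arrays and were highest on ischemic 3. No marker has a true zero on this scale, and the part of these cells, of Xist status and of array quality in the endothelial values was not tested.

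**Figure D5:**
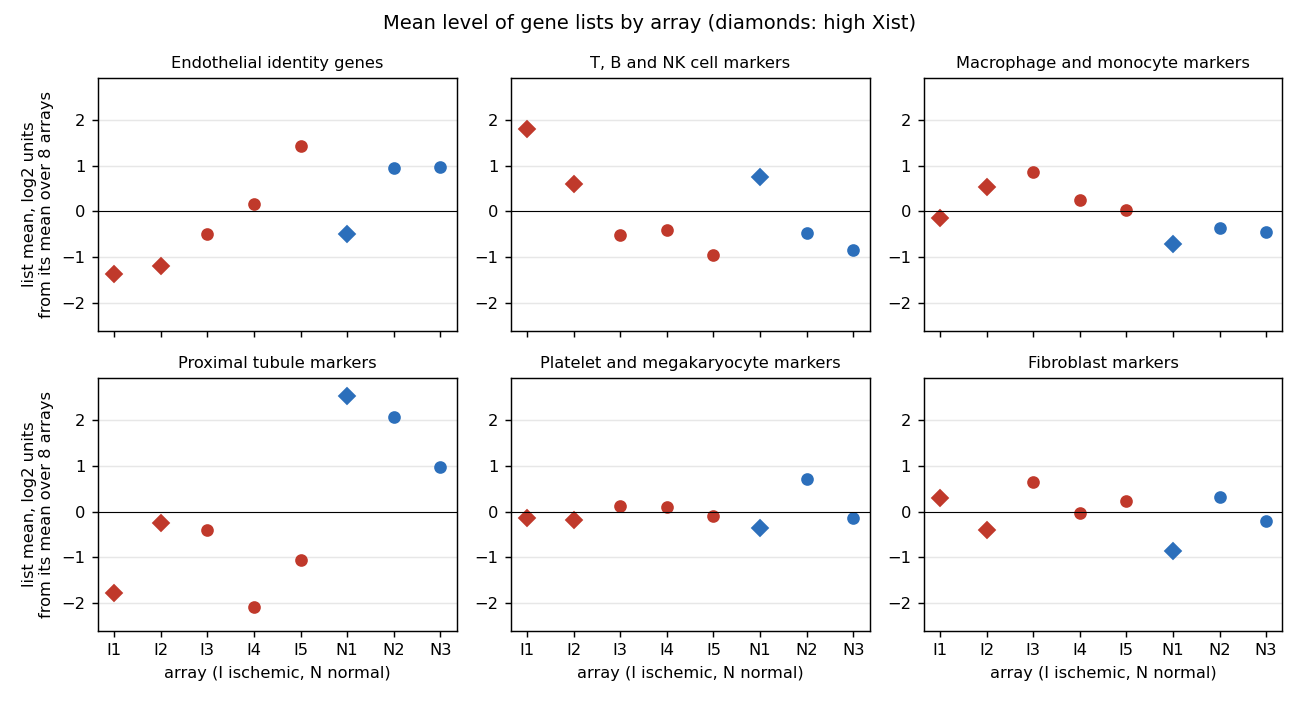
Mean level of 6 gene lists on each array, in log2 units from that list's mean over the 8 arrays (red ischemic, blue normal, diamonds for the 3 arrays of high Xist). The endothelial genes are lowest on ischemic 1 and highest on ischemic 5, and the T, B and NK cell markers are highest on ischemic 1 and lowest on ischemic 5.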

How the data were processed

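GFP-positive kidney cells from 5 ischemic and 3 normal kidneys were profiled. RNA was amplified with NuGEN WT-Ovation Pico and biotin-labelled, per the labels' protocols, which can add spread between arrays. The authors deposited linear probe set intensities, with lowest values between 0.60 and 1.00. For software, background correction and scaling, the sources used here give nothing. No depth applies to arrays, and their number limits precision.

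Values were taken as log2(intensity + 16) and quantile normalized. Of 45101 probe sets, 64 were controls, 34945 had 1 gene symbol, 932 several and 9160 none. Only probe sets with 1 symbol were named, from platform annotation. The brightest probe set stood for a gene, giving 18193 genes, and dim genes were kept. Groups came from sample titles and were compared with limma 3.58.1 (lmFit, eBayes; R 4.3.3), taking a Benjamini-Hochberg adjusted p under 0.05 as called. Figures used matplotlib 3.10.9.

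The 10 genes and all lists were chosen with earlier results of these data known. The named genes were the 10 endothelial genes, up to 4 genes per vascular list with an unadjusted p under 0.05, and the 10 genes nearest in profile. For marker lists of other cells the text gives list values only. Arrays were divided at the largest gap in Xist. Promoter windows came from RefSeq. A planned comparison of receptor proteins was not run. Alternatives covered scaling, pseudocount, probe set rule, dim genes, variance model, array weights, a replicate block, Xist status and each array left out.

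On simulated arrays of 18193 genes with 200 changed in each of 10 draws (from genes of median level or higher, varying independently), the share of changed genes that limma recovered was 4.6% at a fold of 2, 48.8% at 4, 85.2% at 8 and 94.6% at 16. False calls made up 3.56%. Genes of median level or higher had a median within-group SD of 0.67, against 1.22 for the 10 endothelial genes. Recovery at the spread of the 10 was not simulated, so these shares do not carry over to them.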

Additional observations from a re-analysis of the deposited data

Results flagged for a closer look

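Vwf on ischemic 5 (7.91) lay apart from the other 4 ischemic arrays (5.54 to 6.19). The gap to the nearest array was 0.724 of the group's range, above Dixon's critical value of 0.71 for 5 samples. This is 1 flag among 11 groups of values checked (10 genes and their mean), and chance flags about 1 in 20. The other 9 genes and the mean of all 10 had ratios of 0.179 to 0.52.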

How the results depend on the processing

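Over 22 alternatives, 204 of 220 values of the 10 genes kept their direction, 16 reversed and 0 passed the threshold (limma adjusted p from 0.456 to 1). Cdh5, Kdr, Tek, Tie1, Emcn and Plvap stayed negative under all 22. Flt1 turned to −0.022 with arrays centred on ribosomal protein genes, −0.848 with the mean of all probe sets, −1.409 with the probe set of middle rank, and −0.001 with array weights, and ran from −0.019 (without normal 1) to 0.614 with 1 array left out. Eng turned to −0.192 with the probe set of middle rank and −0.041 with low-Xist arrays only, and ran from −0.507 (without normal 1) to 0.853 with 1 array left out, with −0.004 without ischemic 5. Pecam1 turned to 0.378 and Vwf to 0.162 with high-Xist arrays only. With 1 array left out Pecam1 ran from −1.11 to 0.038 and Vwf from −0.73 to 0.114.

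The count of genes called went from 0 to 161 with ribosomal centring, which moved the median of all genes to −0.09, 1 with a pseudocount of 1 or with Xist as a covariate, 2 with the mean of all probe sets, 15 with genes above the 40th percentile, 31 with the eBayes trend and 5 with array weights. With 1 array left out it was 0 to 113, the latter without normal 3. The within-group SD of the 10 genes had a median of 0.77 with high-Xist arrays only. That value rests on ischemic 1 and ischemic 2, as the lone normal array has no spread. With the replicate number as a block, Flt1 was at −0.25, Eng at −0.383 and the median of the 10 genes at −1.62. In that fit 5 of the 10 had an unadjusted limma p under 0.05, as did 1406 of all 18193 genes, and 0 genes were called. Same-numbered arrays correlated at 0.16, −0.0877 and 0.101 in their deviations from the group means, so the numbers were not taken to pair the samples. In the fit with the replicate block, ischemic 4 and ischemic 5 have no normal array of the same number and do not enter the differences. Their means over the 10 genes were 8.10 and 9.37. The cause of the other shifts was not tested.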
